A study of Mus musculus with 6 samples.

Results

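The integrated stress response was followed through 10 genes, the transcription factors Atf4, Atf5, Atf3 and Ddit3 and the target genes Trib3, Chac1, Sesn2, Asns, Psat1 and Phgdh, in liver RNA of sickle cell mice. The genes were taken by symbol, 10 of the 24421 in the count tables, and all 10 were found. RNA sequencing covered 6 liver libraries at 7 months of age, 3 from SS and 3 from AS mice of the Townes line, a model whose mouse alpha- and beta-globin genes were replaced by human ones. SS mice carry the alleles Hbatm1(HBA)Tow and Hbbtm2(HBG1,HBB*)Tow, so all their adult beta-globin is of the sickle form. AS mice, the controls, carry the same alpha-globin allele with Hbbtm2(HBG1,HBB*)Tow over Hbbtm3(HBG1,HBB)Tow, so the human alpha-globin replacement and a sickle allele are common to both groups. Neither sex, litter nor day is labelled, and it is not stated that each library is a different animal, so a p-value here refers to the spread over libraries, which may be technical.

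In this pathway, kinases that sense unfolded protein, amino acid shortage, double-stranded RNA or heme shortage phosphorylate the translation factor eIF2α. General protein synthesis then slows, while translation of ATF4 mRNA goes up, so that ATF4 can be active with little change in its mRNA. ATF4 protein turns on genes for amino acid synthesis and uptake, for other stress transcription factors and for feedback, among them CHOP, the product of Ddit3. In the liver the response is known from protein or amino acid shortage, endoplasmic reticulum stress and mitochondrial injury. The levels given here are of mRNA in whole liver, where fewer cells of a type and less RNA per cell cannot be told apart.

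ATF4 binds, with C/EBP partners, a composite element written here as TGATGNAA. It was searched on both strands of 300-base RefSeq promoter windows (GRCm38.p6, the patch release of mm10), from 250 bases before to 50 bases after each annotated start. All 10 genes had a window, 12 windows in all. The element was found in those of Atf3, Asns, Chac1 and Trib3, that is in 4 of 10 genes, and in 3.97% of all 32851 windows. Its variant TGACGNAA was found for Atf3 and Chac1 (1.59% of all windows), and the palindromic cyclic AMP response element TGACGTCA, which reads the same on both strands, for none of the 10 (1.79% of all windows). A match is a description of the letters and not evidence of binding. The matches are printed 5′ to 3′ on the gene's strand, matches in capitals, because Atf3 and Asns, the genes called in the comparison of SS with AS, both carry one and so do Chac1 and Trib3, which were not called. The Atf3 stretch runs from 150 to 11 bases before the start (chr1:191183344-191183483, minus strand) and the Chac1 stretch from 250 to 101 bases before it (chr2:119350992-119351141, plus strand). The 30-base windows stand for Atf3 close to its start (chr1:191183325-191183354, minus strand), Asns (chr6:7693214-7693243, minus strand) and Trib3 (chr2:152344028-152344057, minus strand).
Atf3: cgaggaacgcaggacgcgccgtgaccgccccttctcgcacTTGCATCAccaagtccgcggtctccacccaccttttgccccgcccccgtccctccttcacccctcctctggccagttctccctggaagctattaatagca
Atf3, close to its start: tattaatagcaTTACGTCAgcctgggattg
Asns: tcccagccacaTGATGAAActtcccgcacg
Chac1: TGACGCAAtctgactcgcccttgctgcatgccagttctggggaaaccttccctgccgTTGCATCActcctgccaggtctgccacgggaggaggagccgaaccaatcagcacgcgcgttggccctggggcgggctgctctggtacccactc
Trib3: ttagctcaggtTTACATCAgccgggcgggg
Atf3 and Chac1 hold the identical 8 letters TTGCATCA, the element read on the opposite strand, 110 and 193 bases before their starts. The Asns match begins 23 bases before the RefSeq start and lies in an exon of the GENCODE model, which starts further upstream. The Atf3 match close to its start lies in a GENCODE exon as well, and the RefSeq start used for Atf3 is inside the GENCODE gene span, which runs to 191218039. The Trib3 match begins at base 15 of the RefSeq transcript and lies upstream of the GENCODE gene (chromosome 2, 152337422 to 152344032).

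Gene counts per library ran from 6670011 to 13700194, so that 1 read equalled 0.0725 to 0.161 CPM, the count scaled to the effective size of its library, and 12622 genes, among them 9 of the 10, had enough reads to test. The length trend was largest in SS replicate 3 and AS replicate 1. SS replicate 1 stood apart in its share of records not assigned to a gene (78.5%, against 66.6% to 69.7% in the other libraries). Records counted as overlapping no feature were 53.9% of all records in SS replicate 1 and 40.7% to 43.8% in the other libraries. Genes were divided by exon length into 4 bins of 3046. Over the bin of shortest genes, the median log2 deviation from the mean of the 6 libraries was -0.409 in SS replicate 3 and 0.229 in AS replicate 1, and over the bin of longest genes 0.439 and -0.249. SS replicate 2 came near AS replicate 1, with 0.186 over the shortest and -0.147 over the longest genes. AS replicates 2 and 3 were close to each other (chi-square 4.51 per gene, against 34.4 to 235 for other pairs), though not within sampling noise. The hepatocyte marker Alb, which encodes albumin, ran from 49600 to 85500 CPM over the 6 libraries.

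Of the genes studied here, Atf3 and Asns rose in SS liver, and no other passed the test. Atf3, a stress-induced repressor and activator of transcription, rose 11.1-fold, and Asns, the enzyme that makes asparagine, rose 4.63-fold. Atf4 and Atf5, the most abundant of the set, Trib3, Chac1, Sesn2, Psat1 and Ddit3 were not called by edgeR's quasi-likelihood test at an adjusted p under 0.05 over all genes. So 2 of the 9 genes tested were called, both higher, where 0.967% of all genes tested were called, 0.911% higher and 0.0555% lower. At an unadjusted p under 0.05, 3 of the 9 were higher in SS (Atf3, Asns and Ddit3), beside 9.12% of all genes, and 0 were lower, beside 3.58%. Both calls were close to the threshold, and with single libraries removed each held in 1 of 6 refits.

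**Figure D1:**
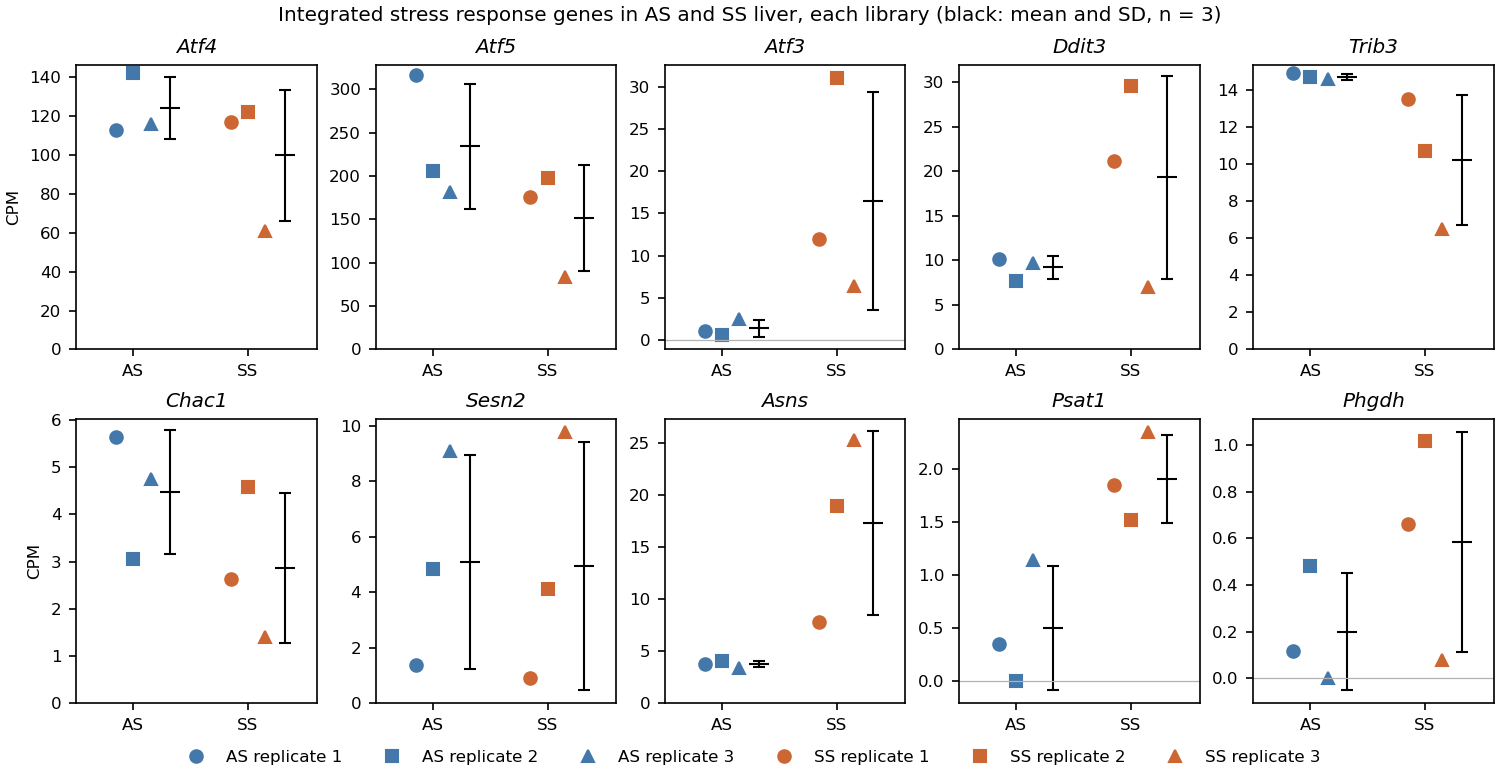
Level of each of the 10 genes in CPM (vertical axes, each panel on its own linear scale) in the 3 AS and 3 SS libraries, with the mean and SD of each group in black. Every SS library lies above every AS library for Atf3, Asns and Psat1, while SS replicate 3 is the lowest of all libraries for Atf4, Atf5, Ddit3, Trib3 and Chac1.

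Among the transcription factors, Atf4 encodes the central activator of the response. Its mRNA stood at 113, 142 and 116 CPM in AS replicates 1 to 3 and at 117, 122 and 61 CPM in SS replicates 1 to 3. SS replicates 1 and 2 lay inside the AS range, and SS replicate 3 alone lay below it. The group means were 124 ± 16 and 99.8 ± 33.6 CPM (SD, n = 3), and the log2 fold change was -0.31 (SE 0.295, adjusted p = 0.683 by edgeR). Its 95% interval, -0.96 to 0.34, stops just short of a 2-fold fall and does not reach a 2-fold rise. Without SS replicate 3 the log2 fold change was -0.06, and without SS replicate 2 it was -0.49 (SE 0.324).

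Atf5, a relative of Atf4 that is also translated under stress and that is prominent in liver, had 316, 206 and 181 CPM in AS and 176, 198 and 83.3 CPM in SS. The SS values reached into the AS range, and the highest and the lowest library were AS replicate 1 and SS replicate 3. The log2 fold change was -0.62 (SE 0.358, 95% interval -1.41 to 0.17, adjusted p = 0.494 by edgeR). Leaving out AS replicate 1 gave -0.36, and leaving out SS replicate 3 gave -0.33. Atf5 (chromosome 7, 44812256 to 44816658, mm10) shares 82 bases of exon with genes on the opposite strand, Nup62 and Il4i1, and the counting is not stated to use strand.

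Atf3 (chromosome 1, 191170296 to 191218039) had 1.04, 0.644 and 2.53 CPM in AS and 12, 31 and 6.42 CPM in SS. The groups did not overlap, as was the case for 21.1% of all genes tested. The SS libraries differed widely among themselves, with replicate 2 at 4.83 times replicate 3. The means were 1.41 ± 0.998 and 16.5 ± 12.9 CPM (SD, n = 3), and Atf3 rose by 3.47 on the log2 scale (SE 0.667, 95% interval 1.99 to 4.94, adjusted p = 0.0444 by edgeR). The call rests on 44 reads in AS and 600 reads in SS. With 1 library left out in turn the log2 fold change lay between 2.62 and 4.24, the group direction did not change, and the call held only without SS replicate 3 (adjusted p = 0.0206 there, 0.0583 to 0.193 in the other 5 fits). The low value came without SS replicate 2 and the high value without AS replicate 3.

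Ddit3 encodes CHOP, which promotes cell death when stress persists. It had 10.1, 7.73 and 9.73 CPM in AS and 21.2, 29.6 and 6.96 CPM in SS. SS replicates 1 and 2 stood above all AS libraries, at 2.31 and 3.22 times the AS mean, while SS replicate 3 stood below all of them, at 0.757 times. The log2 fold change of 1.06 (SE 0.46, 95% interval 0.04 to 2.08, unadjusted p = 0.0425) was not called by edgeR (adjusted p = 0.377). It was 1.45 without SS replicate 3 (adjusted p = 0.0511) and 0.58 without SS replicate 2, and Ddit3 was called in the fit of only AS replicates 2 and 3 and SS replicates 1 and 2 (1.53, adjusted p = 0.0202), a setting chosen after seeing the data. Ddit3 (chromosome 10, 127290774 to 127296288) overlaps 68 bases of exon of Mars and 13 of Gm4189, both on the opposite strand.

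Atf3 and Ddit3 followed the same order over the SS libraries, highest in replicate 2 and lowest in replicate 3. Both genes fall in the bin of shortest genes. The median log2 deviation of that bin had this order as well, at 0.004, 0.186 and -0.409 in SS replicates 1, 2 and 3. The part of the length trend in this order was not tested. The summed level of 9 neutrophil marker genes had that order too, at 31.7, 87.6 and 23.8 CPM in SS replicates 1, 2 and 3 against 3.84 to 6.56 CPM in AS. Of these markers 6 were tested and 2 were called higher, Ngp and Mpo, which encode granule proteins. S100a9, at 15, 35.4 and 6.65 CPM in SS replicates 1, 2 and 3, had the order of the sum, as did Mpo, Camp and Ltf. S100a8, Ngp, Elane and Retnlg were also highest in SS replicate 2 but lowest of the SS libraries in replicate 1. Cxcr2 had 4 reads in AS replicate 2 and 0 in every other library. The part of neutrophil markers in the rise of Atf3 was not tested.

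**Figure D2:**
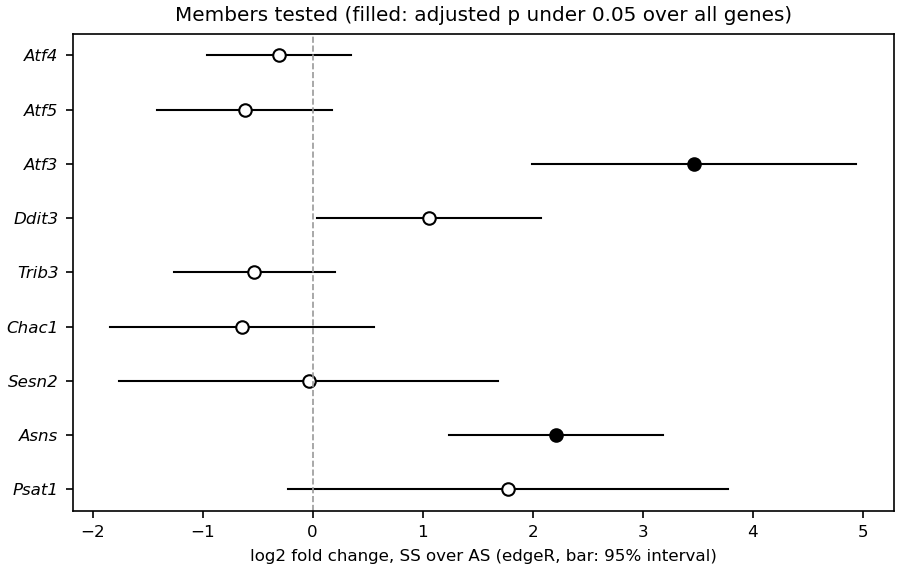
Log2 fold change of SS over AS for the 9 genes tested (horizontal axis), with its 95% interval from edgeR and filled points where the adjusted p over all genes was under 0.05. Atf3 at 3.47 and Asns at 2.21 are filled, and the intervals of Atf4, Atf5, Trib3, Chac1, Sesn2 and Psat1 include 0.

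The feedback and stress effectors below ATF4 and CHOP were not called in either direction. Trib3, a pseudokinase that restrains ATF4 and insulin signalling, had 14.9, 14.7 and 14.6 CPM in AS and 13.5, 10.7 and 6.49 CPM in SS. All SS libraries lay below all AS libraries, as for 9.04% of genes tested. The AS libraries differed by at most 1.02-fold and the SS libraries by 2.07-fold. The log2 fold change was -0.53 (SE 0.33, 95% interval -1.26 to 0.20, adjusted p = 0.52 by edgeR), and -0.30 without SS replicate 3.

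Chac1, which breaks down glutathione, had 5.64, 3.06 and 4.74 CPM in AS and 2.64, 4.57 and 1.41 CPM in SS, and the groups overlapped. Its log2 fold change was -0.64 (SE 0.541, 95% interval -1.84 to 0.56, adjusted p = 0.638 by edgeR), from 126 reads in AS and 101 in SS. It was -0.32 without SS replicate 3 and -1.18 without SS replicate 2. Atf3 and Chac1 thus carry the same 8 promoter letters and had log2 fold changes of 3.47 and -0.64, a difference between genes that was not itself tested.

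Sesn2 encodes sestrin 2, a leucine sensor that holds back mTORC1 and is induced by ATF4, by p53 and by NRF2. It varied widely within groups, with 1.38, 4.83 and 9.08 CPM in AS and 0.924, 4.13 and 9.78 CPM in SS. The libraries spread 6.57-fold in AS and 10.6-fold in SS, and the groups covered nearly the same range. The log2 fold change of -0.04 (SE 0.78, adjusted p = 0.989 by edgeR) has a 95% interval of -1.76 to 1.69, so a 3-fold difference in either direction lies within it. Its sign turned without AS replicate 3 (0.70), SS replicate 1 (0.43) or SS replicate 2 (0.08), and it was -0.98 without SS replicate 3.

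Of the biosynthetic targets, Asns (chromosome 6, 7675169 to 7693254) had 3.8, 4.03 and 3.43 CPM in AS and 7.79, 18.9 and 25.3 CPM in SS. The AS libraries lay within 1.17-fold of each other, and the lowest SS library, replicate 1, was at 2.07 times the AS mean. SS replicates 2 and 3 were at 5.02 and 6.73 times it. The means were 3.75 ± 0.299 and 17.3 ± 8.85 CPM (SD, n = 3), from 100 and 642 reads, and Asns rose by 2.21 on the log2 scale (SE 0.438, 95% interval 1.24 to 3.18, adjusted p = 0.0472 by edgeR). The log2 fold change lay between 1.83 and 2.55 with 1 library left out in turn. It was called without SS replicate 1 (adjusted p = 0.0152) and not in the other 5 such fits (0.0896 to 0.215), and its adjusted p was 0.0521 with median-ratio scaling factors.

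Asns was lowest in SS replicate 1 and highest in SS replicate 3 among the SS libraries. Summed markers of dividing cells had the same order, with 102, 144 and 191 CPM in SS replicates 1, 2 and 3 and 11.8 to 14.9 CPM in AS. Of 12 such markers tested 7 were called higher, with the lowest p for Cdc20, an activator of the anaphase complex. Erythroid markers ran likewise, with 253, 466 and 508 CPM against 46.5 to 64.4 CPM in AS, and 4 of 10 tested were called higher, led by Alas2, the erythroid enzyme that starts heme synthesis. Summed stellate cell markers had the order of Asns too, with 511, 605 and 778 CPM in SS replicates 1, 2 and 3. Summed endothelial cell markers also did, with 292, 325 and 547 CPM. Single genes departed from it. Des and Acta2 ran the other way, and Pdgfrb was highest in SS replicate 2. Pecam1, Kdr, Oit3 and Fcgr2b were lowest of the SS libraries in replicate 2. The part of these marker lists in the rise of Asns was not tested. Pancreatic acinar cells are known for high Asns, and of 10 acinar markers Cpa1 and Amy2a5 had 0 reads in all libraries. Ctrb1, Prss2 and Cela3b had 13, 6 and 5 reads in SS replicate 3 and 0 in each of the other libraries, and Cel had 5 reads there and 2 in SS replicate 2. Cpb1 had 0 reads in SS replicate 3, 12 in SS replicate 1 and 5 in AS replicate 1, and Pnlip at most 2 in any library. Cela1 and Cela2a were lowest of all libraries in SS replicate 3, at 8.37 and 1.49 CPM. The summed acinar markers, which are mostly Cela1, were 24.9, 22.6 and 12.3 CPM in SS replicates 1, 2 and 3 and 26.7 to 36.6 CPM in AS, with 2 of 10 tested and 0 called by edgeR (0 at an unadjusted p under 0.05). The part of acinar RNA in the Asns levels was not tested.

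Among the other marker lists, those for macrophages, bile duct cells and stellate cells also held called genes. Of 12 macrophage markers tested 4 were called higher, led by Gpnmb, with sums of 596 to 741 CPM in AS and 860, 1700 and 1300 CPM in SS replicates 1, 2 and 3. Bile duct markers (2 of 7 tested called higher, led by Cd24a) summed to 105 to 125 CPM in AS and 213 to 327 CPM in SS. Stellate cell markers (2 of 11 called higher, led by Lum) summed to 394 to 452 CPM in AS, below all SS libraries. Sinusoidal endothelial markers, 10 tested with 0 called by edgeR and 2 higher at an unadjusted p under 0.05, summed to 310 to 418 CPM in AS, and the groups overlapped. Of 9 hepatocyte markers tested 0 were called and 0 had an unadjusted p under 0.05 by edgeR, with sums of 89600 to 130000 CPM in AS and 76300 to 105000 CPM in SS. Their part in the levels of the genes studied here was not tested.

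Psat1 and Phgdh encode enzymes of serine synthesis, a route that adult liver uses little when protein is plentiful. Psat1 had 0.345, 0 and 1.14 CPM in AS and 1.85, 1.52 and 2.35 CPM in SS. Every SS library was above every AS library, as for 12.1% of genes tested, but the values rest on 17 and 65 reads. The 0 reads of AS replicate 2 allow a level of up to 0.483 CPM, counting error only. The log2 fold change was 1.78 (SE 0.903, 95% interval -0.22 to 3.78, adjusted p = 0.441 by edgeR) and was not called. It was 3.24 without AS replicate 3.

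Phgdh, the enzyme of the first step of that route, had too few reads to test, with 1, 3 and 0 reads in AS and 5, 14 and 1 in SS. The groups overlapped, and a difference was not detectable at this depth. With no filter on low counts the fitted log2 fold change was 1.58 (SE 1.81, adjusted p = 0.701 by edgeR). An annotated pseudogene is named for Phgdh, and how the counting divided reads between them is not stated.

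Per kilobase of exon, Atf5 and Atf4 stood far above the rest in both groups, at 118 ± 36 and 52.4 ± 6.81 CPM per kb in AS and 76.5 ± 30.6 and 42.3 ± 14.3 in SS (SD, n = 3). In AS, Trib3 (6.91), Ddit3 (5.37), Chac1 (2.74), Sesn2 (1.47), Asns (1.37), Atf3 (0.652), Psat1 (0.117) and Phgdh (0.0802) followed in level per kb. Sesn2 and Asns differed there by less than the spread of Sesn2 (SD 1.11), and so did Psat1 and Phgdh. In SS, Ddit3 (11.2), Atf3 (7.64) and Asns (6.33) stood above Trib3 (4.8), although their SDs of 6.68, 5.97 and 3.23 were larger than the gaps between neighbours in that order. Chac1 (1.75), Sesn2 (1.42), Psat1 (0.448) and Phgdh (0.235) followed.

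SS replicate 3 divided the set. It was the lowest of all libraries for 5 of the 9 genes tested, Atf4, Atf5, Ddit3, Trib3 and Chac1, and the highest for 3, Asns, Sesn2 and Psat1, against 26.7% and 29.7% of all genes tested. Those 5 genes and Atf3 have exon lengths of 1637 to 2358 bases and fall in the bin of shortest genes, of which 50.4% were lowest in SS replicate 3. Asns, Sesn2 and Psat1, at 2735 to 4254 bases, fall in the next bin, with 28.5% lowest and 22.8% highest there. With per-library offsets for GC content and exon length, Atf3 (3.41, adjusted p = 0.0299) and Asns (2.23, adjusted p = 0.0481) were called by edgeR and Ddit3 was not (1.05, adjusted p = 0.213). That setting was chosen after seeing the data.

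**Figure D3:**
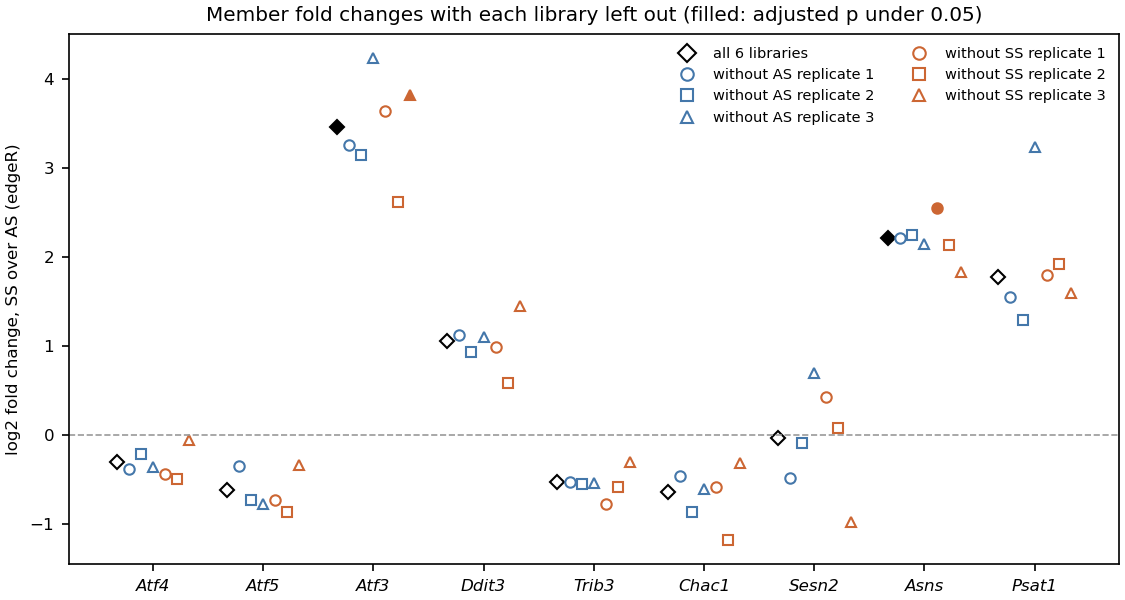
Log2 fold change of SS over AS (vertical axis) for the 9 genes tested, with all 6 libraries (black diamonds) and with each library left out in turn, filled where the edgeR adjusted p was under 0.05. Atf3 stays between 2.62 and 4.24 and Asns between 1.83 and 2.55, while Sesn2 moves from -0.98 to 0.70.

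The wider pathway was described by 10 lists holding 96 genes, of which 89 were tested. A single gene was called, Cdkn1a, higher in SS, and 10 genes were higher and 3 lower at an unadjusted p under 0.05. Over all genes tested these shares were 0.967%, 9.12% and 3.58%. The median log2 fold change over the 89 was -0.055, beside 0.082 over all genes tested.

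None of the 4 eIF2α kinase genes was called by edgeR, and none had an unadjusted p under 0.05, with a median log2 fold change of 0.44. Eif2ak3, which encodes the endoplasmic reticulum sensor PERK, had the lowest p, with 9.1, 9.99 and 6.46 CPM in AS and 12.5, 12.8 and 14.5 CPM in SS. Its groups did not overlap, at a log2 fold change of 0.65 (SE 0.309, 95% interval -0.04 to 1.33, adjusted p = 0.421). Eif2ak1, which encodes the heme-regulated kinase HRI that guards globin synthesis in red cell precursors, had 29.1, 30.6 and 29.2 CPM in AS and 27.1, 32.4 and 34.5 CPM in SS, and its groups overlapped (log2 fold change 0.08, SE 0.238, adjusted p = 0.904). Among the 8 subunits of eIF2 and its exchange factor eIF2B, 0 were called and 0 had an unadjusted p under 0.05 by edgeR. Eif2b5, the catalytic subunit, had the lowest p, at a log2 fold change of -0.34 (SE 0.261). The 5 genes that undo or limit eIF2α phosphorylation likewise gave 0 calls and 0 at an unadjusted p under 0.05 by edgeR, with Impact, an inhibitor of the amino acid sensing kinase, at 0.48 (SE 0.401). Ppp1r15a, which encodes the feedback phosphatase subunit GADD34, was at 0.37 (SE 0.335, adjusted p = 0.665).

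Of 10 tested partners of ATF4 and neighbouring stress factors, edgeR called 0 and 1 had an unadjusted p under 0.05. That gene was Fosl2, an AP-1 subunit, with group means of 6.76 ± 1.86 CPM (AS) and 13.7 ± 2.99 CPM (SS) and a fold change of 1.04 on the log2 scale (SE 0.344, adjusted p = 0.249). The 12 cytosolic tRNA synthetases, many of them ATF4 targets, gave 0 calls and 0 at an unadjusted p under 0.05 by edgeR, and their median was -0.15. Tars had the lowest p, at -0.55 (SE 0.269, adjusted p = 0.425).

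Amino acid transporters held the highest list median, 1.02 over 8 tested, with 4 higher at an unadjusted p under 0.05 and 0 called by edgeR. Slc1a5, which carries glutamine, had 2.76, 8.86 and 6.05 CPM in AS and 27.6, 22 and 19.8 CPM in SS. Its groups were far apart, but at a log2 fold change of 1.98 (SE 0.406, 95% interval 1.08 to 2.88) its edgeR adjusted p was 0.0539. Slc1a4, which carries serine and alanine, had 5.64, 6.93 and 5.4 CPM in AS and 15.2, 25.7 and 13.8 CPM in SS, a log2 fold change of 1.61 (SE 0.344, adjusted p = 0.0638). DESeq2 called both (adjusted p = 0.00166 for Slc1a5 and 0.0107 for Slc1a4) and limma-voom neither (0.0644 and 0.12). Over all alternatives the adjusted p ran from 4.19e-05 to 0.213 for Slc1a5 and from 0.00633 to 0.264 for Slc1a4. With single libraries removed, Slc1a5 was not called in any of 6 refits, and Slc1a4 only without SS replicate 3 (0.0437).

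Enzymes for serine, proline, cysteine and folate-linked carbon units gave 0 calls by edgeR among 10 tested, with 2 lower at an unadjusted p under 0.05. One was Shmt1, which links serine and glycine in the cytosol, with means of 254 ± 44.3 CPM (AS) and 153 ± 37 CPM (SS) and a log2 fold change of -0.73 (SE 0.278, adjusted p = 0.316). The other was Cth, which makes cysteine, at -0.81 (SE 0.319, adjusted p = 0.33). The list median was -0.26, with 6 fitted values below 0 and 4 above 0, which reached 1.48 on the log2 scale.

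Among 14 tested genes that ATF4 or CHOP can also induce, 1 was called and 5 were higher at an unadjusted p under 0.05. Cdkn1a, the p21 cell cycle inhibitor and a p53 target, rose from 13.9, 5.8 and 4.01 CPM in AS to 37.6, 42.9 and 51.2 CPM in SS. The groups were well apart, and the log2 fold change was 2.47 (SE 0.431, adjusted p = 0.0322 by edgeR), 3.17 without AS replicate 1. The call ended without AS replicate 2 or 3 or any of the SS replicates (adjusted p = 0.0581 to 0.176). Gdf15 and Fgf21, secreted signals of the response, were at 0.21 (SE 0.399) and -0.43 (SE 0.725), with adjusted p = 0.852 and 0.829. Hmox1, the heme-degrading enzyme, was at 1.91 (SE 0.472, adjusted p = 0.111), with 351 and 215 CPM in SS replicates 2 and 3 against 70.1 CPM in SS replicate 1.

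The 10 chaperone and signalling genes of the ATF6 and XBP1 arms gave 0 calls and 0 at an unadjusted p under 0.05 by edgeR, with a median of -0.27. Xbp1 itself had the lowest p, with group means of 199 ± 62.2 CPM (AS) and 140 ± 15.1 CPM (SS), a difference of -0.51 on the log2 scale (SE 0.278, adjusted p = 0.476). The 8 genes of the mitochondrial relay and its chaperones and proteases had fitted values below 0 throughout, with a median of -0.42, 0 calls and 1 lower at an unadjusted p under 0.05 by edgeR. That was Hspe1, the small partner of HSP60, at -0.63 (SE 0.279, adjusted p = 0.389).

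**Figure D4:**
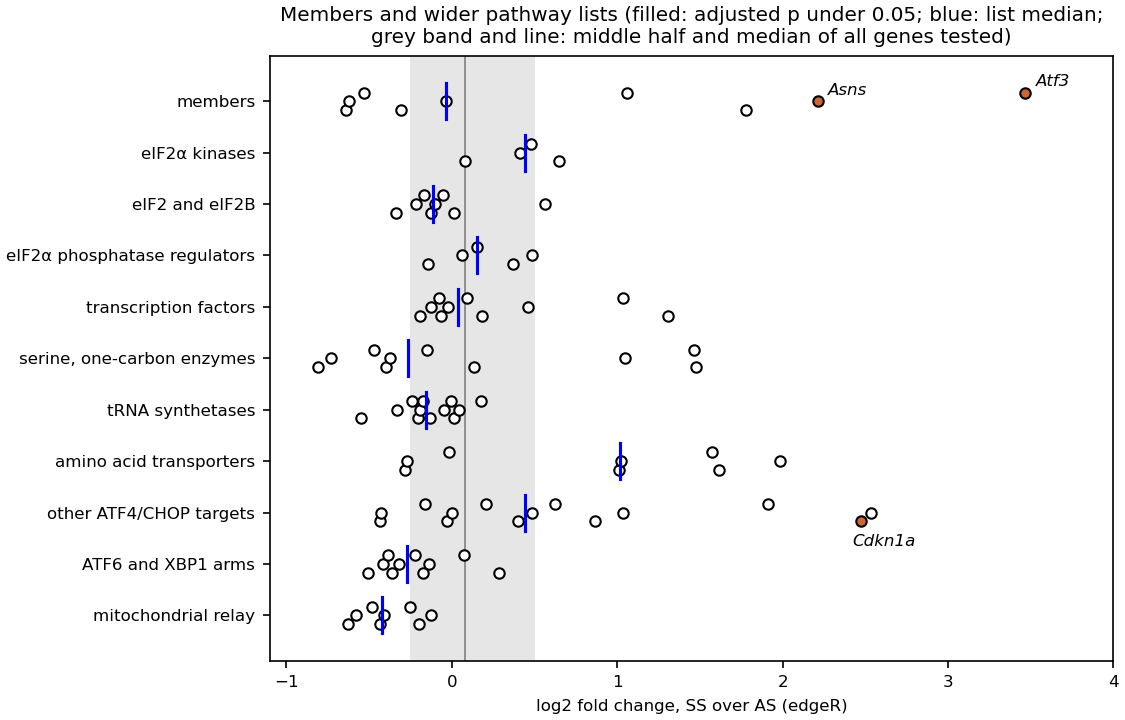
Log2 fold change of SS over AS (horizontal axis) for each tested gene of the set studied here (top row) and of 10 wider pathway lists, filled and named where the edgeR adjusted p was under 0.05. Blue bars are list medians, from 1.02 for amino acid transporters to -0.42 for the mitochondrial relay, and the grey band and line give the interquartile range and the median (0.082) of all 12622 genes tested.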

How the data were processed

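The authors deposited raw read counts per gene symbol for each of 6 libraries. HISAT2 and HTSeq are the tools, and mm10 the genome build, named in the submitters' processing notes. Versions, annotation and strand setting are not given in the sources used here. Counter lines for records not assigned to a gene, 66.6% to 78.5% of records per library, were left out. Symbols missing from the tables were matched through RefSeq synonyms.

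SS was compared with AS over all genes by edgeR 4.0.16 in R 4.3.3: filterByExpr (minimum count 10, minimum total 15), TMM scaling, and the quasi-likelihood F-test (two-sided) with robust dispersions, its p-values adjusted by Benjamini-Hochberg over 12622 genes. Called means an adjusted p under 0.05. CPM used the same factors. The procedure was tested on simulated data. Exon lengths and positions came from GENCODE vM21, which names a value for all 10 genes and for 96.5% of genes tested, and promoters from RefSeq. Besides the 10 genes, each pathway list names its called genes or else its gene of lowest p, and each marker list with a call its called gene of lowest p. Other genes were named after their values were seen. The genes and lists were chosen with earlier results of these data known. No set test was run.

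Alternatives were 3 other scalings, 2 other filters, a replicate block, a non-robust fit, DESeq2 1.42.0, limma-voom (limma 3.58.1) and each library left out. Added after seeing the data were the fit without AS replicate 1 and SS replicate 3, AS replicates 2 and 3 summed, and GC and length offsets.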

Additional observations from a re-analysis of the deposited data

How the results depend on the processing

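Over all genes, 122 calls became 217 with no filter, 460 with a replicate block, 370 with DESeq2, 31 with limma-voom, 22 to 99 with 1 library left out, 662 without AS replicate 1 and SS replicate 3, and 31 with AS replicates 2 and 3 summed. The 2 calls among the genes studied here became 1 with median-ratio factors or a non-robust fit, which kept Atf3, and 0 with limma-voom (3 at an unadjusted p under 0.05) or with AS replicates 2 and 3 summed (2 at an unadjusted p under 0.05). With 1 library left out there were 0 to 1: 0 without AS replicate 1, 2 or 3 or SS replicate 2 (2 to 3 at an unadjusted p under 0.05 by edgeR), Asns without SS replicate 1 and Atf3 without SS replicate 3. The 1 call in the wider pathway became 3 with library totals alone or no filter, 5 with the replicate block, 4 with DESeq2, 9 (4 higher, 5 lower) without AS replicate 1 and SS replicate 3, 0 with AS replicates 2 and 3 summed (9 at an unadjusted p under 0.05 by edgeR), and 0 to 1 with 1 library left out (Cdkn1a without AS replicate 1, Hmox1 without SS replicate 1 and Slc1a4 without SS replicate 3). The cause of these moves was not tested.

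The log2 fold changes of Atf3 and Asns were above 0 in all 18 alternatives, from 2.62 to 4.24 and from 1.83 to 2.55, but were past the threshold in 11 and 8 of them. Those of Atf4, Atf5, Trib3 and Chac1 were below 0 and not called in any of the 18. Sesn2, at -0.037, turned to 0.24 with library totals alone and 0.11 with AS replicates 2 and 3 summed, was -1.41 without AS replicate 1 and SS replicate 3, and ranged from -0.98 to 0.70 with 1 library left out. Library totals alone moved the median of all genes from 0.082 to 0.36, and the GC and length offsets moved it to -0.11, with 99 genes called higher and 20 lower against 115 and 7. That split was 346 and 316 without AS replicate 1 and SS replicate 3, 276 and 94 with DESeq2, 367 and 93 with the replicate block, and 77 and 15 without SS replicate 1. The labels do not say that replicate numbers pair the libraries. Deviations from the group mean correlated at 0.05, -0.12 and 0.193 for same-numbered libraries, and not every library correlated best with its own number. These deviations also carry the length trends of single libraries, so the correlations cannot decide whether the libraries are paired. Psat1, Phgdh and AS levels of Atf3 rest on few reads.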
